A study of Rattus norvegicus with 4 samples.

Results

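The genes of the proteasome and its immunoproteasome form were examined in NR8383 cells exposed to carbon nanotubes. Members were the gene probes whose RefSeq identifier, with the version dropped, belongs to a rat gene with a symbol starting in Psma, Psmb, Psmc, Psmd, Psme, Psmf or Psmg. This gave 47 genes, read by 50 probes, of the 16581 genes that could be named on the array. The symbol rule also took in Psmc3ip and Psme3ip1, which are named after a proteasome partner and are not subunits of the particle. A further 55 symbols with these prefixes had no matched probe: 48 are pseudogenes and 7 are protein-coding genes, among them the assembly chaperones Psmg1 and Psmg3.

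All 4 samples belonged to 1 group. NR8383 is a line of macrophages from rat lung lavage. The cells, at 20 passages, grew for 48 h in 25 cm2 flasks and then received the multi-walled carbon nanotube NRCWE006 for 4 h, at 1 cm2 of nanotube surface for each cm2 of culture. RNA of each culture went onto its own 1-colour Agilent array, and the arrays are called replicates 1 to 4 as in the labels. The study describes cultures without nanotubes, and these are not analysed here. The values below describe exposed cells, and none measures what the exposure changed. The labels do not say that the 4 cultures were grown on separate days, and the spread between arrays may be partly technical.

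The proteasome is the protease that degrades proteins tagged with ubiquitin. Its 20S core is a barrel of alpha rings, which guard the entrance, and beta rings, which hold the catalytic sites. The 19S cap at the end of the barrel binds the ubiquitin chain, removes it, unfolds the protein with a ring of ATPases and feeds it in. Under interferon-gamma many cells replace the catalytic beta subunits Psmb6, Psmb7 and Psmb5 with Psmb9, Psmb10 and Psmb8, and they make more of the activator Psme1 and Psme2. The resulting immunoproteasome is known for producing peptides that MHC class I molecules present, and macrophages and other immune cells carry part of it without stimulation.

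A level here is the log2 of the processed signal minus the 75th percentile of the same array over the probes detected on all 4 arrays. A level of 0 is therefore a signal at that percentile, and 1 unit is a 2-fold difference. Levels of the same gene can be compared between arrays. Levels of different genes are read by different probes and say nothing on which gene is more abundant. A gene was called detected where a probe of it was well above background on all 4 arrays by the scanner software's own flag. That percentile corresponded to a signal of 384, 281, 236 and 223 units in replicates 1 to 4, and the negative control spots had a median of 2.98 to 4.61 units. Replicate 4 had 656 gene spots marked as non-uniform, against 9 to 34 on the others, and its negative controls were the brightest. Of the marker lists, 7 of 13 macrophage genes were detected, and 0 of 6 lung epithelium, 0 of 5 fibroblast, 0 of 3 lymphocyte and 0 of 3 granulocyte genes. Of 4 endothelium genes Vwf was detected. Of the macrophage genes not detected, 2 were well above background on 1 to 3 arrays and 4 on none. Of all named genes 11.9% were detected, so a count of 0 in lists this short does not show that a cell type was absent.

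Of the 46 members measured on all arrays, 30 were detected (65.2%), against 11.9% of the named genes. All 7 beta ring genes and all 3 immunoproteasome catalytic genes were detected. The alpha ring gave 4 of 8, the 19S ATPases 5 of 6 and the 19S non-ATPase subunits 7 of 11. Of the activators 2 of 4 were detected, and these were Psme1 and Psme2. The inhibitor Psmf1 was detected, as was 1 of 5 assembly chaperones. All 5 genes of the immunoproteasome, Psmb8, Psmb9, Psmb10, Psme1 and Psme2, were well above background on every array.

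A further 6 members were well above background on some arrays. Psma4, Psmd11 and Psme3 were so in replicates 1 to 3 and not in replicate 4. Psma4 was not called there although its level was highest there, at -3.22 against -3.45, -3.99 and -3.27 in replicates 1 to 3. Psmd3 was called in replicates 1 and 2, Psmd14 in replicates 1 and 3, and Psmd7 in replicates 1, 3 and 4. These 6 genes had signals between 8.43 units (Psmd3 in replicate 4) and 39.8 units (Psmd11 in replicate 1), in the region where the call turns: the dimmest called probe had 12.79 to 17.96 units, depending on the array. The remaining 11 were called on no array: Psma2, Psma3, Psma8, Psmc6, Psme4, Psmg2, Psmg4, Psmd5, Psmd10, Psmc3ip and Psme3ip1. The only Psmd10 spot was set aside on replicate 4 by a quality flag. Psma8 is an alpha subunit known from the testis, and its signal of 3.19 to 4.56 units lay at the level of the negative controls. Psma2, Psma3 and Psmc6 are obligate parts of the particle in all cells, and a probe that is not well above background does not show that their RNA is absent.

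The number of members called was 36, 34, 35 and 31 of 47 in replicates 1 to 4. Of all named genes 21.1%, 17.7%, 15.8% and 20.3% were called on the same arrays. Replicate 4 thus had the fewest members called, although it had the second highest share of all genes. Of the members called on replicates 1 to 3, 3 of 33 were lost on replicate 4 (9.09%), against 19.5% of the named genes.

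**Figure D1:**
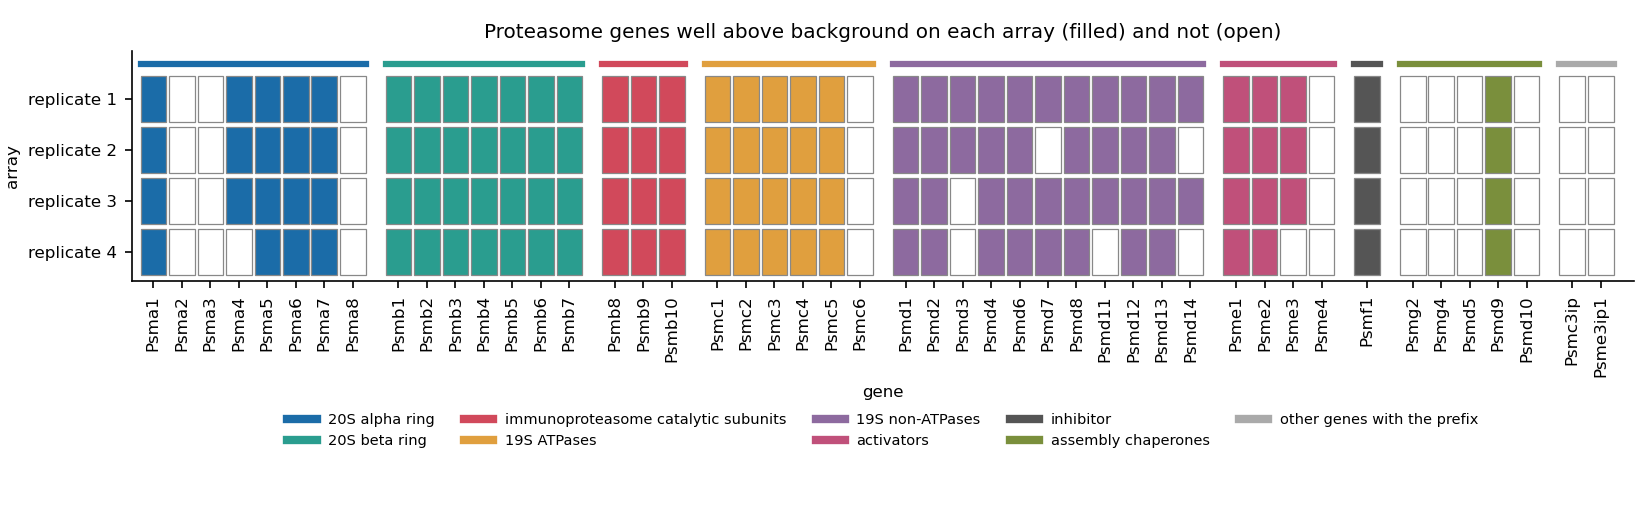
Each column is a proteasome gene, grouped by role in the bars above, and each row is an array; filled boxes are genes well above background and open boxes are genes that were not. The beta ring and the immunoproteasome catalytic genes are filled on all 4 arrays. The open boxes lie mainly among assembly chaperones, alpha ring genes and the non-subunit genes Psmc3ip and Psme3ip1. The 19S non-ATPases are mostly filled.

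Within the alpha ring, 4 genes were detected. Psma1 lay at -1.91, -1.89, -1.32 and -2.20 (log2 levels, replicates 1 to 4). Replicate 3 was the highest and replicate 4 the lowest, and their distance of 0.88 was the widest of all 30 detected members. Psma5 lay at -1.30, -1.32, -1.07 and -1.27, with replicate 3 again the highest. Psma6 lay at 0.08, 0.11, -0.06 and -0.32, and here replicate 4 was the lowest. Psma7 was the steadiest of all detected members: it lay at -0.83, -0.94, -0.82 and -0.85, an SD of 0.053 over the 4 arrays. Psma7 is printed 10 times on each array, and its single spots on 1 array had an SD of 0.090 to 0.207. An array value averages 9 or 10 of these spots, so the SD of single spots is not the error of an array value.

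The beta ring holds the structural subunits Psmb1, Psmb2, Psmb3 and Psmb4 and the catalytic subunits Psmb5, Psmb6 and Psmb7. Psmb1 lay at -3.35, -3.57, -2.94 and -2.99, with replicates 1 and 2 below replicates 3 and 4. Psmb2 lay at 0.06, 0.00, -0.02 and -0.13, and the arrays nearly coincided. Psmb3 lay at 0.76, 0.89, 1.02 and 0.99, again within a narrow band. Psmb4, also printed 10 times, lay at 1.00, 1.26, 1.33 and 1.43. Replicate 1 was the low array of Psmb3, Psmb4 and Psmb6. The single spots of Psmb4 on 1 array had an SD of 0.058 to 0.236. The SD between arrays was 0.181, and it is an SD of averages over spots, so these values are not like for like.

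Psmb5, which carries the chymotrypsin-like activity, lay at 1.21, 1.32, 0.95 and 1.62. Its highest value was in replicate 4 and its lowest in replicate 3. Psmb6, which carries the caspase-like activity, lay at 1.43, 1.82, 1.51 and 1.74, with replicate 2 the highest and replicate 1 the lowest. A second Psmb6 probe lay at 0.77, 0.65, 0.69 and 0.86, and both probes put replicate 4 above the mean of the others by 0.16, while replicate 2 was the lowest array of the second probe. Psmb7, which carries the trypsin-like activity, lay at -1.71, -1.52, -1.44 and -2.14. Among the constitutive catalytic genes Psmb7 was thus lowest in replicate 4 and Psmb5 highest there.

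The catalytic subunits of the immunoproteasome were close together between arrays. Psmb8 lay at -0.66, -0.82, -0.93 and -0.53, on average -0.74 ± 0.17 (SD, n = 4). Psmb9 lay at -0.62, -0.71, -0.47 and -0.82, on average -0.66 ± 0.15 (SD, n = 4). Psmb10 lay at -1.51, -1.73, -1.43 and -1.50, on average -1.54 ± 0.13 (SD, n = 4). No array was high or low for all 3 genes: replicate 4 was the highest for Psmb8, the lowest for Psmb9 and in the middle for Psmb10. The activator Psme1 lay at 0.93, 1.17, 1.03 and 0.94, on average 1.02 ± 0.11 (SD, n = 4). Its partner Psme2, which forms a ring with Psme1 that opens the core, lay at 0.85, 0.98, 1.02 and 0.75, on average 0.90 ± 0.12 (SD, n = 4). Over the 5 genes the median SD was 0.13, and none moved by more than 0.40 between its highest and its lowest array. Both activator genes are printed 10 times, with SDs of single spots of 0.107 to 0.306 for Psme1 and 0.135 to 0.147 for Psme2. These are not errors of the array values, which average the spots. In replicate 3, 4 of the 10 Psme1 spots were set aside by quality flags.

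**Figure D2:**
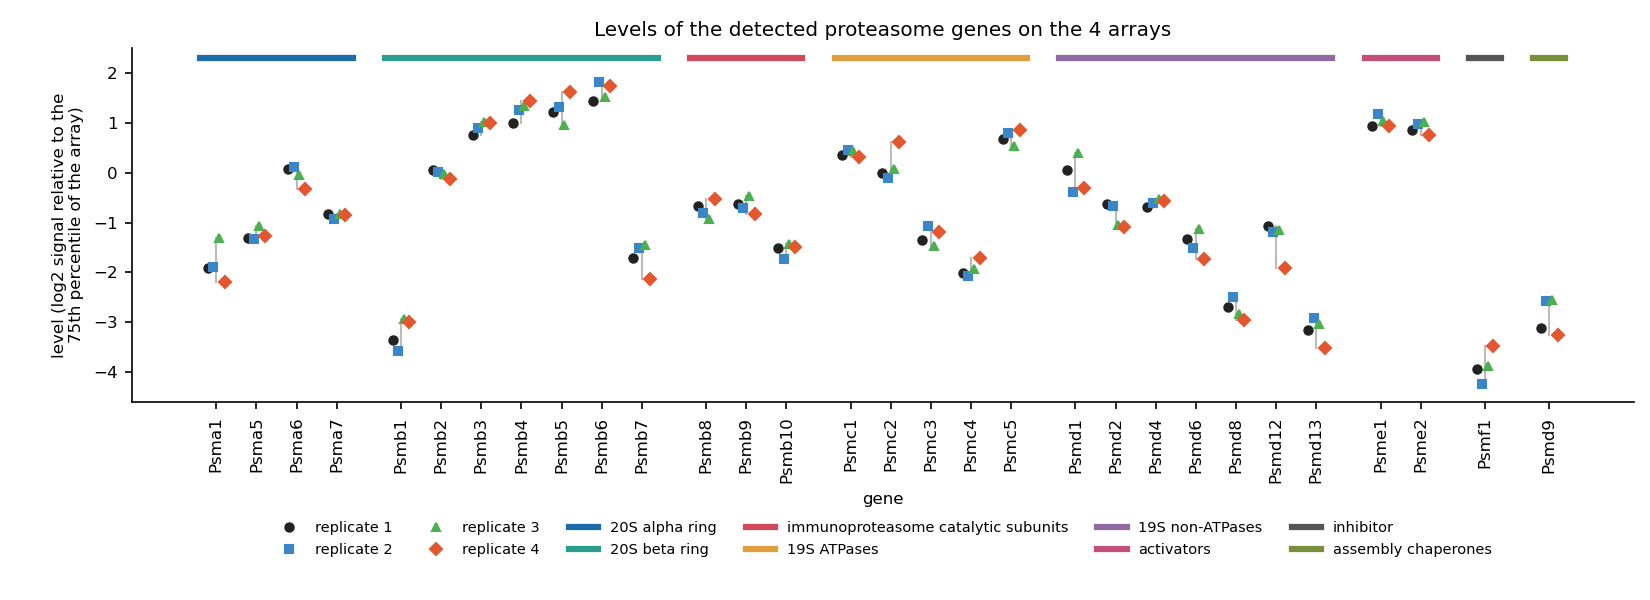
Log2 levels of the 30 detected proteasome genes by role, with 1 point per array and a grey line from the lowest to the highest array. Within each gene the points lie within 0.88 of each other, from Psma7 with the tightest set to Psma1 with the widest, and heights of different genes are not comparable because their probes differ.

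The promoters of the 5 immunoproteasome genes are shown next to those of the constitutive catalytic genes Psmb5, Psmb6 and Psmb7, since the immunoproteasome genes are known interferon targets and the constitutive genes are known targets of NFE2L1 and NFE2L2. Sequences are those of RefSeq on build GRCr8, 250 bases before to 50 bases after the start of the gene, 5′ to 3′ along the gene. They lie at chr20:4656982-4657281 (minus strand) for Psmb8, chr20:4668750-4669049 (plus strand) for Psmb9, chr19:50743243-50743542 (minus strand) for Psmb10, chr15:33038721-33039020 (plus strand) for Psme1 and chr15:33052702-33053001 (minus strand) for Psme2. The constitutive genes lie at chr15:32047330-32047629 (minus strand) for Psmb5, chr10:55737638-55737937 (plus strand) for Psmb6 and chr3:42827421-42827720 (minus strand) for Psmb7. Capitals mark matches, on either strand, to 4 motifs: the core of the interferon-stimulated response element, which is GAAA, any 2 bases and GAAA; TTCNNNGAA, a STAT site; TGACNNNGC, the core bound by NFE2L1 and NFE2L2; and CCAAT, the box bound by NF-Y.
Psmb8: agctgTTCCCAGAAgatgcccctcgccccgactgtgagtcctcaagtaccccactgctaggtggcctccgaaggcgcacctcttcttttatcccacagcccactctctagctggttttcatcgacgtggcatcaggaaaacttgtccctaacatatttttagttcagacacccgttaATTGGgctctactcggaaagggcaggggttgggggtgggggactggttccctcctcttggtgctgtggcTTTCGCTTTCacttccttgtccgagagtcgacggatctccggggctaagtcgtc
Psmb9: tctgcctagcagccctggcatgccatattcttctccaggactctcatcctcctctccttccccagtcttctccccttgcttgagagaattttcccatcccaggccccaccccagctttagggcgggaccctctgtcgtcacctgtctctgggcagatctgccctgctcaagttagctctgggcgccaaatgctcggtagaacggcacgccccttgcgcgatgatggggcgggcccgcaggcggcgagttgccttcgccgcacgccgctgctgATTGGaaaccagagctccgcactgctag
Psmb10: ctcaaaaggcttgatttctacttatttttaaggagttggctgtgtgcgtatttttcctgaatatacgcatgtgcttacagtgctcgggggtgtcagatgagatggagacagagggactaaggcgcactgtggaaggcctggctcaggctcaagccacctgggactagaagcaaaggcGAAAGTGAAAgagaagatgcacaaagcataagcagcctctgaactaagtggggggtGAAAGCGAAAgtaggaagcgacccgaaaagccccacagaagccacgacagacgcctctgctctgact
Psme1: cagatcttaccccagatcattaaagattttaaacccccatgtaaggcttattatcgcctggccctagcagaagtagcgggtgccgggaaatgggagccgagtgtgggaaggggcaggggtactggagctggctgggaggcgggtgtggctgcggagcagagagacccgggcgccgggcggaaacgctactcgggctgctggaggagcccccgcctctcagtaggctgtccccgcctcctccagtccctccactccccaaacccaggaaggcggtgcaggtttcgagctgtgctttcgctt
Psme2: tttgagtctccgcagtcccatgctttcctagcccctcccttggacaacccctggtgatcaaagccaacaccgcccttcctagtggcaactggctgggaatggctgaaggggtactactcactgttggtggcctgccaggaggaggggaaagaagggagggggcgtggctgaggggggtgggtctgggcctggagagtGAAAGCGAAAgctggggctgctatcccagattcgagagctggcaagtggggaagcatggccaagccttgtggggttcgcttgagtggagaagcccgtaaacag
Psmb5: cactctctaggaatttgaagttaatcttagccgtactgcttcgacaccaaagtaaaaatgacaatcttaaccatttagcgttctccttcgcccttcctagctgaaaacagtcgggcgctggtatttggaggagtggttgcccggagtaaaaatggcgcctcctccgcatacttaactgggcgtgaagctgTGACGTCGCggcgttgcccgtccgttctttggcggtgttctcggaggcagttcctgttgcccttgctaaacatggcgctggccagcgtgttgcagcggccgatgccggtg
Psmb6: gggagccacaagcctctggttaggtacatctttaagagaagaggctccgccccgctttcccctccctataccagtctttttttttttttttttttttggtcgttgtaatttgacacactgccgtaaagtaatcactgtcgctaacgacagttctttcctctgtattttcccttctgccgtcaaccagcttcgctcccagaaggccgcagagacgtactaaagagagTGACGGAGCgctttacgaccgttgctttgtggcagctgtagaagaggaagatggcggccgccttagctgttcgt
Psmb7: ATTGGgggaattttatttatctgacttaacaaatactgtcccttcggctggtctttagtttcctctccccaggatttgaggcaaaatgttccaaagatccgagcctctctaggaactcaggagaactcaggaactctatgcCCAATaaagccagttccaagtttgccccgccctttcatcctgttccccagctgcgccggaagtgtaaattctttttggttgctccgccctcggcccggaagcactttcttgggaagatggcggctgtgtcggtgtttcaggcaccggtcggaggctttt

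The interferon-stimulated core was found in the promoters of Psmb8, Psmb10 and Psme2, which is 3 of the 5 immunoproteasome genes. The Psme1 window holds no full match to any of the 4 motifs. Its last bases, tttcgctt, are those that begin the Psmb8 match to the interferon-stimulated core. The bases beyond the window were not searched. Counting from 1 at the first printed base, the Psmb8 match covers bases 247 to 256 on the opposite strand. The Psmb10 matches cover bases 178 to 187 and 234 to 243, and the Psme2 match covers bases 198 to 207. Over the 43 members with a promoter sequence 7 held the motif (16.3%), against 3.92% of all 33469 promoters. TGACNNNGC was in none of the 5 immunoproteasome promoters and in Psmb5 (bases 191 to 199) and Psmb6 (bases 227 to 235) but not in Psmb7, and it was in 8 of 43 members (18.6%), against 12.1% of all promoters. CCAAT was in 22 members (51.2%), against 37.5%, and TTCNNNGAA in 4 members (9.30%), against 8.87%. In Psmb2 a CCAAT match overlaps a TGACNNNGC match by 1 base. These matches are letters in a window, and no binding was measured here.

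In the 19S cap, the ATPases Psmc1 to Psmc5 form most of the unfolding ring. Psmc1 lay at 0.36, 0.46, 0.43 and 0.31, a band of 0.15 over all 4 arrays. A second Psmc1 probe, at -2.11, -2.09, -1.90 and -2.51, also had its lowest value in replicate 4. Psmc2 lay at 0.61 in replicate 4, against 0.00, -0.11 and 0.07 in replicates 1 to 3, the largest distance above the other arrays among the 30 detected members at this scaling. Psmc3 lay at -1.35, -1.07, -1.47 and -1.18, and replicate 4 was within the range of the others. Psmc4 lay at -1.71 in replicate 4, against -2.01, -2.08 and -1.93 in replicates 1 to 3. Psmc5 lay at 0.86 in replicate 4, against 0.68, 0.80 and 0.53 in replicates 1 to 3. Psmc2, Psmc4 and Psmc5 were thus all highest in replicate 4.

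The non-ATPase subunits include the scaffold proteins Psmd1 and Psmd2, the ubiquitin receptor Psmd4 and the lid subunits Psmd6, Psmd8, Psmd12 and Psmd13. Psmd1 lay at -0.30 in replicate 4, against 0.05, -0.39 and 0.40 in replicates 1 to 3. Psmd2 lay at -1.10 in replicate 4, against -0.63, -0.66 and -1.05 in replicates 1 to 3. Psmd4 lay at -0.56 in replicate 4, against -0.68, -0.62 and -0.52, within the range of the others. Psmd4 was the steadiest of these 7 genes, with an SD of 0.070.

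The 4 detected lid genes of the Psmd series were lowest in replicate 4 at this scaling. Psmd6 lay at -1.73 there, against -1.33, -1.50 and -1.13 in replicates 1 to 3. Psmd8 lay at -2.96, against -2.69, -2.49 and -2.83 in replicates 1 to 3. Psmd12 had the largest SD of all detected members, 0.39, and 1 array stood away from the others: it lay at -1.91 in replicate 4, against -1.08, -1.20 and -1.15 in replicates 1 to 3. Psmd13 lay at -3.52 in replicate 4, against -3.16, -2.91 and -3.04 in replicates 1 to 3. The lid genes that missed the detection rule were Psmd3, Psmd7, Psmd11 and Psmd14, the last of which removes ubiquitin from the substrate. Of these, Psmd3, Psmd11 and Psmd14 were lowest in replicate 4 and Psmd7 was highest. Psmd7 had 33.1 units there, against 17.5, 13.7 and 21.2 units in replicates 1 to 3. The detected lid gene Sem1, outside the Psmd series, lay at 0.36 in replicate 4, against 0.49, 0.18 and 0.25, within the range of the others.

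The inhibitor Psmf1, which binds the core, lay at -3.47 in replicate 4, against -3.93, -4.25 and -3.88 in replicates 1 to 3. Psmd9, a chaperone for the ATPase ring that is not part of the finished particle, lay at -3.25 in replicate 4, against -3.11, -2.58 and -2.55 in replicates 1 to 3. The other chaperones with a probe, Psmg2, Psmg4, Psmd5 and Psmd10, were called on none of the arrays. Psmg4 had a pair of probes, and neither was called. Psme3, which activates nuclear proteasomes, had 12.1 units in replicate 4, against 24.4, 20.0 and 21.3 units in replicates 1 to 3, and Psme4 stayed at 3.23 to 4.90 units.

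The detected members differed little between cultures. Their median SD over the 4 arrays was 0.182, against 0.241 for the 1946 detected named genes, and 12 of 30 members lay above the median of all genes. Brighter probes vary less, and the members were bright: 22 of 30 had a mean level above the median of all detected genes. Among the brighter genes their median SD was 0.162, against 0.195 for all genes, and among the dimmer genes it was 0.306 over 8 members, against 0.300. None of the 30 members changed over 2-fold between its highest and its lowest array, against 15.3% of all detected genes. The share over 2-fold was 7.09% of the brighter and 23.4% of the dimmer genes. The count of 0 belongs to this scaling and filter. It was 9 of 30 with quantile normalization, where the share of all genes was 39.9%. With detection set by the negative controls it was 3 of 38, where the share was 35.6%. With normexp background correction it stayed at 0, but the share of all genes was then only 2.00%. The median SD under normexp was 0.173 over the members, against 0.167 over all genes, so the members were not steadier there. Without replicate 4 the count was 0, where the share of all genes was 3.66%.

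**Figure D3:**
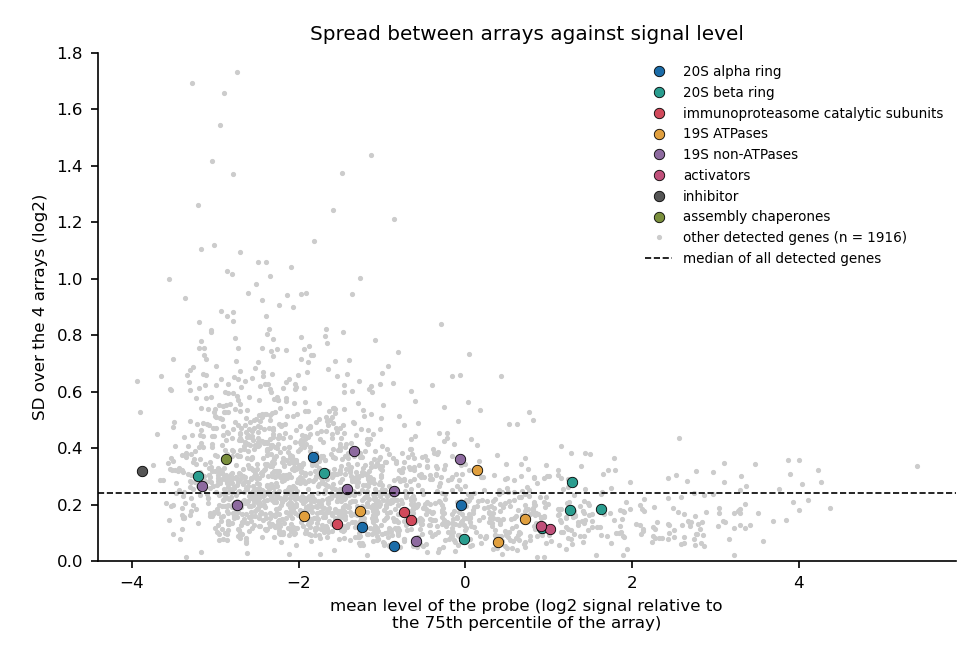
Each point is a detected gene, with its mean level over 4 arrays on the horizontal axis and the SD of that level between arrays on the vertical axis, both in log2; proteasome genes are coloured by role and all other detected genes are grey. The 30 proteasome genes have SDs of 0.053 to 0.39 and lie in the lower part of the grey cloud, mostly to the right of its middle.

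Earlier results of these data had shown replicate 4 standing apart, so its distance from the other arrays was taken for each member. Replicate 4 also differed from them in spot quality. The median of replicate 4 minus the mean of replicates 1 to 3 was -0.07 over the members and -0.07 over all detected genes. Replicate 4 was below that mean for 16 of 30 members, against 56.6% of all detected genes. It was the lowest array for 13 members, against 39.6% of genes, and the highest for 7, against 30.1% of genes. Over all roles together, the members' median and that of all genes thus nearly coincided.

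By role the values spread. The 19S non-ATPases had a median of -0.32 and 6 of 7 were lower in replicate 4, Psmd4 excepted. The ATPases of the same cap had a median of 0.20 and 4 of 5 were higher. The alpha ring had a median of -0.21 over 4 genes, the beta ring 0.16 over 7 and the immunoproteasome catalytic subunits 0.06 over 3. These directions are relative to each array's percentile: without scaling, the median distance of replicate 4 from the others was -0.47 over the members and -0.47 over all genes. The differences between roles rest on 1 array and were not tested, and they move with the processing. Relative to all genes, 4 of 7 non-ATPases were lower in replicate 4 with quantile normalization and 4 of 7 with normexp background correction. These were Psmd6, Psmd8, Psmd12 and Psmd13 with quantile normalization, and Psmd1, Psmd2, Psmd6 and Psmd12 with normexp. Under both of these, 15 of 30 members kept the sign they had relative to all genes. Of the ATPases these were Psmc2, Psmc3, Psmc4 and Psmc5 (all higher). Of the non-ATPases they were Psmd6 and Psmd12 (lower) and Psmd4 (higher). The part of spot quality and of the brighter background of replicate 4 in these values was not tested.

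**Figure D4:**
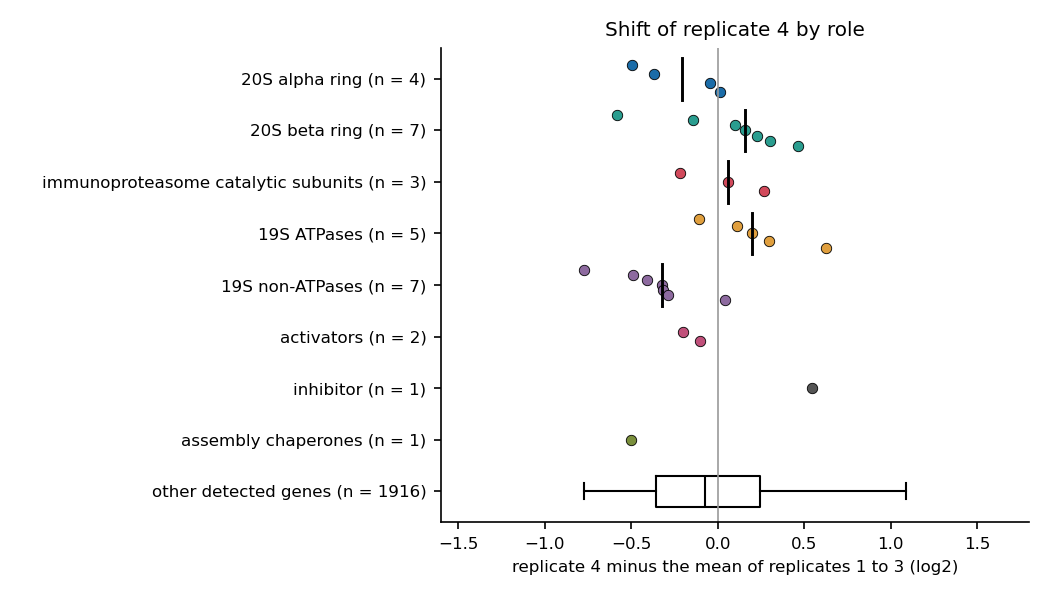
Replicate 4 minus the mean of replicates 1 to 3 on the log2 scale for each detected proteasome gene by role, with a bar for the role's median where it has over 2 genes; the box at the bottom shows the other detected genes (median, quartiles and whiskers from the 5th to the 95th percentile). Non-ATPase genes lie mostly left of 0 and ATPase genes mostly right, while the median of the other detected genes is at -0.07.

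Of the list of ubiquitin genes with a ubiquitin-like gene and the activating and conjugating enzymes, 8 of 9 genes with a probe were detected. The ubiquitin gene Ubb averaged 3.27 ± 0.18 (log2 level, SD, n = 4). The second activating enzyme Uba6 was called on no array. Of the genes that deliver substrates 6 of 11 were detected, led in the list by the unfoldase Vcp at -2.17 ± 0.30, its cofactor Nploc4 at -1.86 ± 0.14 and Nsfl1c at -1.02 ± 0.24 (SD, n = 4).

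Of the 19S subunits and partners with other names 3 of 5 genes with a probe were detected. Sem1, a small lid subunit, averaged 0.32 ± 0.13, the deubiquitinase Usp14 -2.76 ± 0.79 and Ubxn1 -1.90 ± 0.67 (SD, n = 4). The last 2 varied more between arrays than any detected member. Txnl1 was called on no array. Of the genes that assemble the particle or drive its transcription 3 of 10 were detected: Pomp, the chaperone of the core, at 1.20 ± 0.12, Nfe2l2 at -2.44 ± 0.32 and Mafg at -3.53 ± 0.19 (SD, n = 4). Ddi2, the protease that activates NFE2L1, was called on no array.

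The 5 immunoproteasome genes were detected on all arrays, and genes of interferon control were read beside them. Of 12 genes of interferon control with a probe, 2 were detected, the receptor Ifngr1 at -1.16 ± 0.29 and Stat2 at -2.71 ± 0.25 (SD, n = 4). That is 16.7%, beside the 11.9% of all named genes. A further 5 of the 12 were well above background on 1 to 3 arrays, and 5 on none. Jak2 was called on no array. Chosen after its values were seen, Irf1 was called in replicates 1 to 3 at 39.0, 24.7 and 16.9 units and not in replicate 4 at 9.94 units. Irf8, a macrophage transcription factor, and Ciita, the activator of MHC class II genes, also chosen after their values were seen, were called on no array. Of the genes that supply peptides to MHC class I, 3 of 9 were detected: the light chain B2m at 1.15 ± 0.30, and the chaperones Calr at -1.16 ± 0.28 and Canx at -2.78 ± 0.65 (SD, n = 4). Tap1, a subunit of the peptide transporter, was called on no array, with 3.56 to 12.0 units. In the reference gene order Tap1 lies between Psmb8 and Psmb9, so the calls differed between neighbouring genes. Tap2, on the other side of Psmb8, was not called either. Psme1 and Psme2 also lie close together, with Emc9 between them.

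**Figure D5:**
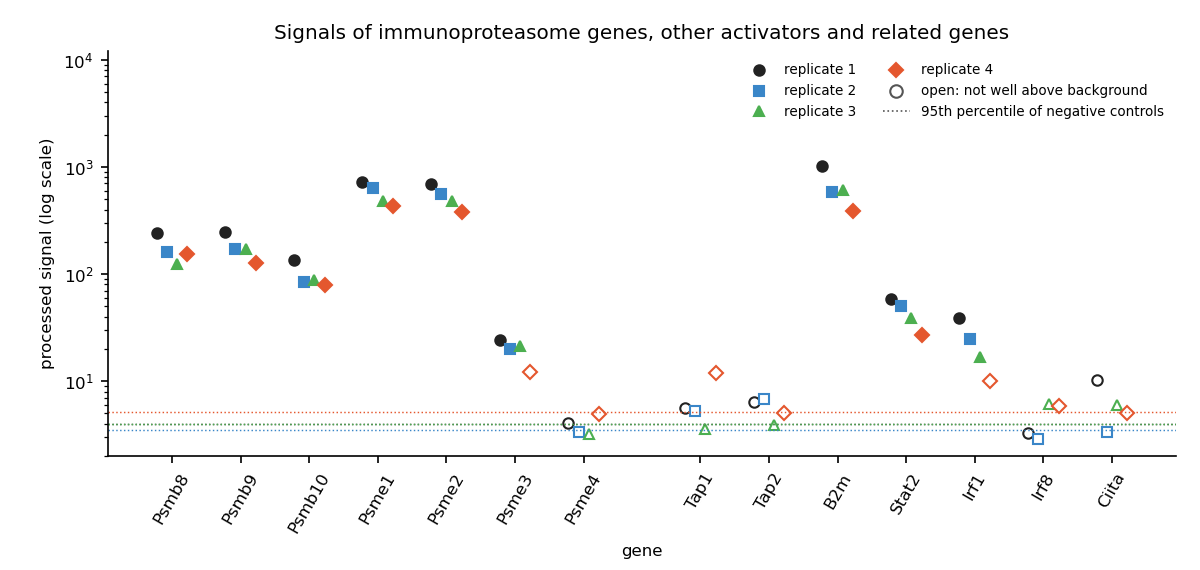
Processed signal on a log axis, without scaling between arrays, with 1 point per array. The genes are the immunoproteasome genes, the other activators Psme3 and Psme4, and genes of interferon control and peptide supply. Dotted lines lie at the 95th percentile of each array's negative controls. Filled points were well above background and open points were not. All 5 immunoproteasome genes and B2m are filled on every array, while Tap1 and Tap2 are open on all 4.

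Many proteasome genes have close copies in the rat genome. Of the 47 members 19 have a pseudogene or a like-named gene in the gene table, 52 copies in all, and 13 of these 19 members were detected. No copy has a probe matched here. Whether these 13 probes also bind RNA from a copy was not tested.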

How the data were processed

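The deposited files hold 1 scanner output for each array, made by the authors with Agilent Feature Extraction 11.0.1.1 per the file headers: a background-corrected intensity for each spot, with quality flags. The treatment of the signals after scanning is not given in the sources used here. All 4 arrays share 1 slide and 1 scan, so no batch could be separated, and no column of other samples was present. Control spots (4259) and spots flagged as non-uniform or population outliers were left out, spots of a probe were averaged, and log2 intensities were scaled to the 75th percentile over the 3208 probes well above background (over 50% of spots) on all 4 arrays. The brightest detected probe stood for a gene. Gene names came from the RefSeq table of GRCr8 through the accession without version, which named 21109 of 45598 probes; the array design is older, so no gene coordinates are printed beside levels.

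With 1 group and no second group nothing was tested between groups, and counts, levels and SDs are descriptions. The members, the roles, the related lists, the comparison of replicate 4 with the other arrays and the alternatives were chosen with earlier results of these data known. All detected members are named; each related list is read in its written order until 3 detected genes and 1 gene called nowhere have been named, and any other gene is said to be chosen later; some genes that this rule names are not reported here. Dixon's outlier test (critical value 0.829 for 4 samples) was run on each detected member and related gene. The alternatives were detection by negative controls (95th percentile plus 10%), detection on at least 3 arrays, quantile normalization, the percentile over all gene probes, no scaling, normexp with offset 50 on the median spot signal (limma 3.58.1, R 4.3.3), flagged spots kept, the mean of detected probes, no filter on dim probes and leaving out each replicate. On simulated data with 1946 genes, shifts of 0.5 and 1 put into the fourth array came back as medians of 0.516 and 1.02. The simulated arrays had equal noise, no flagged spots and the real detection calls. They check the calculation and not the spot quality or background of replicate 4. Precision is limited by having 4 arrays. Python 3.11.15 with pandas 2.3.3 was used for the other steps.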

Additional observations from a re-analysis of the deposited data

Results flagged for a closer look

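Dixon's criterion for a single array far from the other 3 was applied to 30 detected members and 33 detected related genes and markers, and 3 genes passed the critical value, where chance alone flags about 1 in 20 (3.15 expected among all examined). Psmd12, a lid subunit of the 19S cap, had a level of -1.91 in replicate 4, the low value, against -1.08, -1.20 and -1.15 in replicates 1 to 3. Spi1, a transcription factor of myeloid cells, had a level of -2.05 in replicate 4, the high value, against -3.58, -3.48 and -3.44 in replicates 1 to 3. Sqstm1, a receptor that brings ubiquitin-tagged cargo to autophagy, had a level of 0.44 in replicate 1, the high value, beside 0.13, 0.14 and 0.11 in replicates 2 to 4.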

How the results depend on the processing

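The number of detected members was 30, and 30 to 38 over the alternatives: 38 with detection by negative controls (21.5% of all named genes then), 34 on at least 3 arrays (15.5% of genes) and 30 to 33 when 1 replicate was left out. The same 30 members were detected under each of these. The count of detected related genes was 25, and 25 to 34. The median SD of members was 0.8292 with the percentile over all gene probes (0.851 for all genes), 0.377 without scaling (0.456) and 0.290 without the filter on dim probes (0.551), and 0.15 to 0.208 with 1 replicate left out. Members over 2-fold numbered 3 with detection by negative controls, 1 on at least 3 arrays, 9 with quantile normalization, 30 with the percentile over all gene probes, 10 without scaling and 8 without the filter, beside 35.6%, 24.5%, 39.9%, 92.8%, 52.8% and 72.5% of all genes. Leaving out 1 replicate gave 0 to 1, the 1 being Psmd7, which entered without replicate 2. The median shift of replicate 4 was -1.64 with the percentile over all gene probes and -0.47 without scaling, as it was for all genes (-1.64 and -0.47). Relative to all genes it was 0.22 with quantile normalization, where all genes moved by -0.46, and -0.82 without the filter, where they moved by 0.81. Non-ATPases lower in replicate 4 relative to the median shift of all genes numbered 6 of 7. The count was 4 of 7 with quantile normalization and 4 of 7 with normexp background correction. It was 10 of 11 without the filter, where the median is set by 16419 genes, most of them not detected. Even Psmc2 lay at -0.18 relative to that median, so the 10 of 11 is not particular to non-ATPases. The cause of these changes was not tested. Levels depend on the probes that set the percentile: 28 of 30 moved by more than their SD without replicate 4. No paired analysis was possible because all samples belong to 1 group. Signal over background limits what can be said of the 17 members not detected.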

Other observations

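Some genes were well above background in replicate 4 alone. Those below were chosen after their values were seen, and the share of all genes called only there was not counted. Replicate 4 had 6476 probes called, against 5722, 4745 and 4252 in replicates 1 to 3. It also had 656 gene spots marked as non-uniform, against 9 to 34. The part of spot quality in the signals below was not tested. Adrm1, the ubiquitin receptor of the 19S cap with a name outside the Psm series, had 67.9 units in replicate 4, against 3.21, 2.75 and 3.33 units in replicates 1 to 3. Marco, a scavenger receptor of alveolar macrophages, had 68.8 units in replicate 4, against 3.87, 3.27 and 3.21 units. Sftpb, a surfactant protein of lung epithelium, had 45.0 units there, against 3.22, 3.02 and 3.58 units, and Cdh5, a junction protein of endothelium, had 62.8 units, against 3.30, 4.07 and 3.89 units.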
